A study of Homo sapiens with 12 samples.

Results

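MYCN and 9 further genes of the MYC-MAX-MXD network were followed in IMR5 neuroblastoma cells after XPO1 was blocked with a drug or its transcript was lowered with an siRNA. The 10 genes (MYCN, MYC, MAX, MXD1, MXD3, MXD4, MXI1, MNT, MGA and MLX) were chosen by symbol, all 10 were found in both deposited tables, and 18987 genes are in both. IMR5 is an established human neuroblastoma line with amplified MYCN, so every group here carries that amplification and all values describe 1 line. XPO1 carries proteins and some RNAs out of the nucleus, and selinexor is a small molecule that inhibits it. The drug comparison set cells kept for 24 h in medium with 100 nM selinexor against cells in medium with DMSO, whose time is not given. The knockdown comparison set cells nucleofected with 1 siRNA against XPO1 against cells given negative control siRNA, both collected at 72 h. Each of the 4 groups held 3 libraries of total RNA.

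MYC proteins are transcription factors that bind DNA only as a pair with MAX, most strongly at the E-box CACGTG, and drive genes of growth and division. MAX also pairs with MXD1, MXD3, MXD4, MXI1, MNT and MGA, which hold the same sites without activating them. The MXD proteins and MNT recruit the SIN3 histone deacetylase complex, and MGA works in a form of the Polycomb complex known as PRC1.6. MLX is a relative of MAX that pairs with the MLXIP and MLXIPL proteins and with some of the MXD group. In neuroblastoma, amplification of MYCN marks a high-risk form of the tumour. MXD1, MXD4 and MXI1 are best known from cells that stop dividing and differentiate, whereas MXD3 is best known from dividing cells.

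The promoters of 4 members were chosen to show the sites the network's own genes carry: MXD4 and MLX each hold the E-box, MXD3 holds the related site CACGCG, and MYCN holds paired sites for E2F, the factor family of the G1/S transition. They are RefSeq promoters on GRCh38.p14, from 250 bases before to 50 after the start of transcription, printed 5′ to 3′ along the gene's strand with the site in capitals. MXD4 is at chr4:2262060-2262359 on the minus strand, MLX at chr17:42566850-42567149 on the plus strand, MXD3 at chr5:177312703-177313002 on the minus strand and MYCN at chr2:15940300-15940599 on the plus strand.
MXD4: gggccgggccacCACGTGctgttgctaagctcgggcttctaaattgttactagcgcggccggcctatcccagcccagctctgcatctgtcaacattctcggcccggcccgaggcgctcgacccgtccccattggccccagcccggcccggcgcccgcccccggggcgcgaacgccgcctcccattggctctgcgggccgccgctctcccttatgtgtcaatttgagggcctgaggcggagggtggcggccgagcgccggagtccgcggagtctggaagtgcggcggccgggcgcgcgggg
MLX: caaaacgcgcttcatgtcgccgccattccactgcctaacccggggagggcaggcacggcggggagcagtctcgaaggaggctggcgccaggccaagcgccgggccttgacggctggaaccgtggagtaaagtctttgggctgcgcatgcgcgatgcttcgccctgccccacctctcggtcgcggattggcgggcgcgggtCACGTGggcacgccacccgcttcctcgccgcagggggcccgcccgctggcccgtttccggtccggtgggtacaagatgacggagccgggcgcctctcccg
MXD3: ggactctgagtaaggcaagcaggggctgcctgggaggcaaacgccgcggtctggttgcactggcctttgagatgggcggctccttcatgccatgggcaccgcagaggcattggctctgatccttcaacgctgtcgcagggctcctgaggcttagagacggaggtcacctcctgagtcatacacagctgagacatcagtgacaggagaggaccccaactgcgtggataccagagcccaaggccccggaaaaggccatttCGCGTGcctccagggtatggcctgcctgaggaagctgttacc
MYCN: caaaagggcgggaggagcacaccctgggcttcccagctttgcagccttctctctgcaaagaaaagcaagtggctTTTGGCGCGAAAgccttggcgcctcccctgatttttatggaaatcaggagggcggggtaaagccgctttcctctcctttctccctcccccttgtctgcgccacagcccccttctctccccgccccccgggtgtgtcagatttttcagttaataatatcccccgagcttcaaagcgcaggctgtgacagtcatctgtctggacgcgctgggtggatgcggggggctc

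The E-box begins 238 bases before the start in MXD4 and 50 bases before it in MLX. In MXD3 the site lies at base 8 after the start and reads CGCGTG on the printed strand. In MYCN, TTTGGCGC begins 176 bases before the start and GCGCGAAA, which is TTTCGCGC on the other strand, begins 172 bases before it, so that the pair overlaps. In the RefSeq table used here 9 members matched, with 14 promoters in all, and MYC did not. CACGTG was also found for MNT, CACGCG also for MXI1 and MGA, and an E2F site also for MGA. Both strands were searched. Over 35116 RefSeq promoters of the same length, CACGTG was in 7.26%, CACGCG in 11.4% and TTTGGCGC or TTTCGCGC in 1.15%. These matches describe the letters only, and no binding was measured.

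Gene positions below are those of the files, on hg19, and are not to be set against the GRCh38.p14 positions of the promoters. Each value is a normalized read count from the authors' tables, listed for replicates 1, 2 and 3 in turn or as mean ± SD (n = 3). A log2 fold change is taken on log2(value + 1), and a gene is called at a limma adjusted p (Benjamini-Hochberg over all genes tested) under 0.05. Since no label ties the replicates to separate cultures, the p-values cover the spread of these libraries alone, which may be technical. Estimated depth was 26.9 to 55.8 M reads per library, lowest with selinexor (26.9 to 33.8 M). Selinexor replicate 1 stood apart, with log2 correlations of 0.974 and 0.977 to the other replicates, which correlated at 0.991 with each other. Without it the members' calls with selinexor were the same, 3 higher and 3 lower. Calls over all genes rose without it, from 4146 higher and 4774 lower to 5048 and 6065. The signal recognition particle RNAs RN7SL1 and RN7SL2 took 9.40% to 9.72% of counts with DMSO, 12.6% to 16.0% with selinexor, 12.6% to 13.1% with control siRNA and 10.8% to 12.4% with XPO1 siRNA, and their part in the results was not tested. XPO1 fell by 2.11 on the log2 scale with its siRNA (adjusted p = 2.91e-14) and was not called with selinexor (log2 fold change 0.09, adjusted p = 0.623). The adrenergic neuroblastoma markers stood high, HAND2 for one at 12098 with DMSO and 15755 with control siRNA, except TH, which was analysed in the knockdown table alone and averaged 5.41. Of 7 tested in each table, 6 rose with selinexor, where 22.9% of all genes tested rose, and 5 with the siRNA, where 25.9% rose. None of these markers fell. Their summed level was 38018 to 39264 with DMSO and 50038 to 52318 with selinexor, and 49402 to 51008 with control siRNA and 58810 to 62746 with XPO1 siRNA. The sum of 2 leukocyte markers reached 32.4 at most, that of 2 endothelial markers 93.8 and that of 3 Schwann cell markers 143.4. All 3 sums were higher in treated than in control libraries without overlap. Of all single genes tested, 61.7% stood apart without overlap with selinexor and 60.4% with the siRNA. Among these markers, the endothelial cadherin gene CDH5 was called higher in both comparisons, and CD74 was not called with selinexor. Fibroblast markers summed to 1167 to 1331 with DMSO and 934 to 1964 with selinexor, and to 1669 to 1932 with control siRNA and 1399.9 to 1450.1 with XPO1 siRNA, with PDGFRB lower in both comparisons and COL1A1 with the siRNA. All libraries are cultures of 1 established line, so these sums describe transcripts in that line and do not measure other tissue cells. The part of these marker genes in the results was not tested. In bulk RNA, a change in the share of the line's cells in a given state and a change in RNA per cell cannot be told apart.

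The level of each member per kb of transcript set the scale of the network in cells with DMSO. MYCN was by far the most abundant, at 14103 ± 284 normalized reads per kb with DMSO, rank 394 among 14341 genes. MLX followed at 2767, and MXD4 (1877), MAX (1743), MGA (1623), MXI1 (1094) and MNT (1009) stood close together. MXD3 (391) and MXD1 (245) were lower, and MYC was at 8.16. Neighbours in this order did not overlap between the 3 DMSO libraries. The order between MLX and MXD1 depends on the transcript length used: with the longest annotated transcript in place of the median over transcripts, MAX (402), MGA (391), MXI1 (279) and MXD4 (277) followed MLX (1143), and MXD3 (255) stood above MNT (117). MYCN stayed first, with 11640, and MYC last, with 4.71. With selinexor the order by median length became MYCN, MXD4, MLX, MAX, MXI1, MGA, MNT, MXD1, MXD3 and MYC, and the libraries of MLX and MAX, MAX and MXI1, MXI1 and MGA, and MGA and MNT overlapped.

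**Figure D1:**
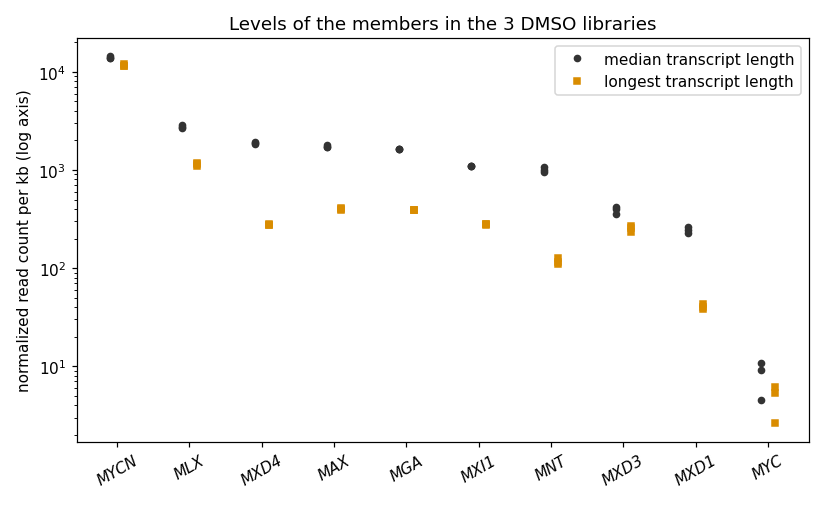
Normalized read count per kb of transcript (log axis) of the 10 members in each of the 3 DMSO libraries, with the median (black circles) or the longest (orange squares) annotated transcript length. MYCN stands at the top and MYC at the bottom with either length, 14103 and 8.16 by median length, while the members between them change order.

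After either treatment MXD1, MXD3 and MXD4 had the largest called changes of the 10 members. MXD1 and MXD4 rose and MXD3 fell with both selinexor and the XPO1 siRNA, MXI1 rose and MLX fell less, and MYCN rose by 0.30 on the log2 scale with the siRNA and was not called with selinexor. With selinexor 6 members were called, 3 higher and 3 lower, where 49.2% of 18128 genes tested were called (22.9% higher and 26.3% lower). With the siRNA 9 members were called, 7 higher and 2 lower, where 54.5% of 17616 genes were called (25.9% higher and 28.6% lower). The members' median log2 fold change was 0.09 with selinexor and 0.30 with the siRNA, against -0.01 and 0.00 over all genes tested; without selinexor replicate 1 the first was -0.01. Control and treated libraries stood apart without overlap for 6 members with selinexor and 9 with the siRNA, where 61.7% and 60.4% of all genes did. In all, 5 members were called in both comparisons in the same direction (31.3% of 17332 genes) and MGA in opposite directions (2.54%).

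**Figure D2:**
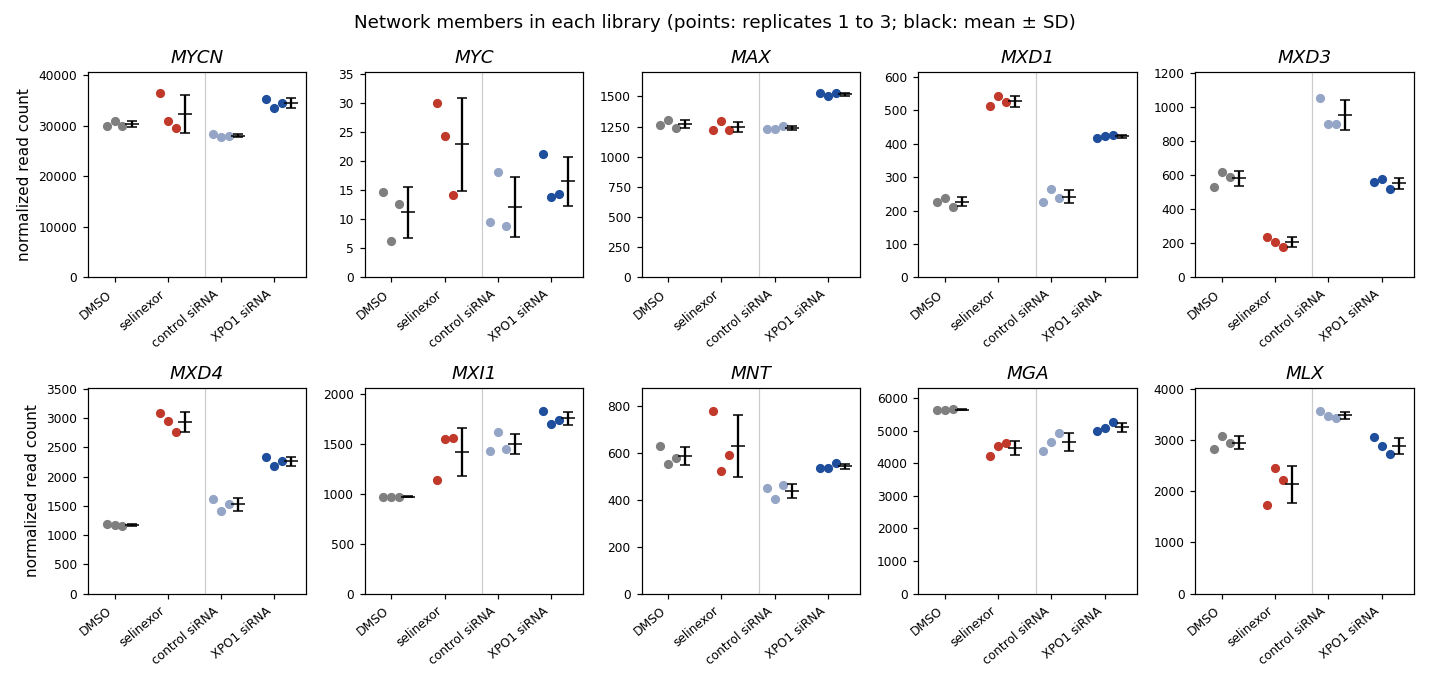
Normalized read count of each member in the 3 libraries of each group (points, replicates 1 to 3), with the mean ± SD beside them in black; the grey line separates tables that were normalized apart. MXD1 and MXD4 lie higher and MXD3 and MLX lower in both treated groups without overlap, while MYCN selinexor replicate 1, at 36518, stands above the other selinexor libraries.

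**Figure D3:**
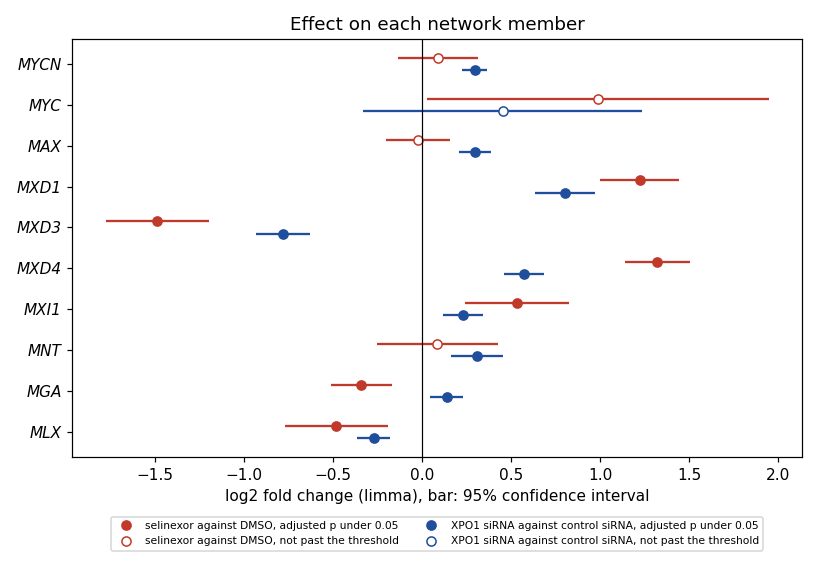
Log2 fold change of each member with selinexor (red) and XPO1 siRNA (blue), with its 95% confidence interval from limma; filled points have an adjusted p under 0.05. MXD4 reached 1.32 with selinexor and MXD3 -1.49, and for MGA the points lie on opposite sides of 0.

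MYCN, the amplified driver (hg19 chr2:16080686-16087130, plus strand), read 29914, 30989 and 29956 in the DMSO libraries and 36518, 30945 and 29498 with selinexor. The groups overlapped, and the highest library was selinexor replicate 1. The log2 fold change was 0.09 (SE 0.0976, 95% confidence interval -0.14 to 0.31, adjusted p = 0.479) and -0.0033 without that replicate. With control siRNA MYCN read 28400, 27847 and 27884, and with XPO1 siRNA 35368, 33418 and 34528. All 3 knockdown libraries were above all 3 controls, a 1.23-fold rise (log2 fold change 0.30, SE 0.0328, adjusted p = 4.82e-06). MYCN shares its locus with MYCNOS on the opposite strand, and the sources used here do not say whether the counting used strand. MYCNOS averaged 710.3 with DMSO and 809 with control siRNA, did not pass with selinexor (log2 fold change -0.09, adjusted p = 0.667) and fell by 0.16 with the siRNA (adjusted p = 0.048), with overlapping libraries.

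MYC, the family member that drives many other tumours, was close to the limit of counting. It read 14.6, 6.18 and 12.6 with DMSO and 30.0, 24.3 and 14.2 with selinexor, which rests on an estimated 7 to 25 reads per library. The selinexor libraries overlapped the DMSO libraries only through replicate 3, and the change was not called (log2 fold change 0.99, 95% confidence interval 0.03 to 1.95, adjusted p = 0.0811). The knockdown libraries (21.2, 13.8 and 14.3) overlapped their controls (9.48, 18.0 and 8.87), and MYC was not called there (log2 fold change 0.45, adjusted p = 0.315). Differences of this size were not detectable at this depth.

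MAX, the partner that MYC proteins and their antagonists share (chr14:65472892-65569414, minus strand), read 1262, 1303 and 1241 with DMSO and 1223, 1293 and 1224 with selinexor. The groups overlapped, and the interval of the log2 fold change ran from -0.20 to 0.15 (adjusted p = 0.802). With control siRNA it read 1227, 1233 and 1256, and with XPO1 siRNA 1525, 1505 and 1529. Here the groups stood apart, a 1.23-fold rise (log2 fold change 0.29, SE 0.0414, adjusted p = 4.15e-05). MAX overlaps FNTB, a farnesyltransferase gene on the opposite strand, which fell by 0.52 with selinexor (adjusted p = 0.0023) and was not called with the siRNA (log2 fold change 0.04).

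MXD1, an antagonist that replaces MYC on MAX as cells differentiate (chr2:70124820-70170078, plus strand), read 226, 239 and 212 with DMSO and 512, 543 and 526 with selinexor. Every selinexor library held more than every DMSO library, a 2.33-fold rise (log2 fold change 1.22, SE 0.0976, adjusted p = 3.05e-05). With control siRNA MXD1 read 225, 263 and 238, and with XPO1 siRNA 416, 424 and 426. The knockdown rise was 1.74-fold (log2 fold change 0.80, adjusted p = 1.64e-06), again with no overlap. SNRNP27, a splicing factor gene that overlaps MXD1 on the same strand, was not called in either comparison (adjusted p = 0.212 and 0.119).

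MXD4, whose promoter carries the E-box shown above (gene at hg19 chr4:2249159-2264022, minus strand), had the largest rise of the 10 members with selinexor. It read 1196, 1165 and 1153 with DMSO and 3088, 2949 and 2756 with selinexor, all higher (log2 fold change 1.32, SE 0.0803, adjusted p = 7.16e-06). With control siRNA MXD4 read 1626, 1418 and 1527, and with XPO1 siRNA 2341, 2183 and 2268. That was a rise of 0.57 on the log2 scale (adjusted p = 6.74e-07), with no overlap.

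MXI1, the MXD family member also called MXD2 (chr10:111967363-112047124, plus strand), read 969, 962 and 969 with DMSO and 1134, 1543 and 1559 with selinexor. All selinexor libraries were higher, but replicate 1 was well below the others. The log2 fold change was 0.53 (SE 0.128, adjusted p = 0.0092) and 0.68 without replicate 1. With the siRNA MXI1 went from 1431, 1616 and 1444 to 1825, 1696 and 1736. The knockdown groups stood apart by a small gap, with a log2 fold change of 0.23 (adjusted p = 0.00226).

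MXD3 (hg19 chr5:176728462-176739759, minus strand) went the other way from its relatives. It read 531, 620 and 591 with DMSO and 234, 207 and 179 with selinexor, so that every selinexor library held less than any DMSO library (log2 fold change -1.49, SE 0.127, adjusted p = 4.24e-05). With control siRNA MXD3 read 1053, 899 and 903, and with XPO1 siRNA 560, 577 and 516. These groups did not overlap either (log2 fold change -0.78, adjusted p = 6.63e-07). MXD3 overlaps PRELID1, a gene of mitochondrial lipid transport on the opposite strand, which fell by 0.85 with selinexor and by 0.56 with the siRNA. It also overlaps RAB24 on the same strand, which was not called with selinexor (log2 fold change -0.13) and fell by 0.30 with the siRNA (adjusted p = 0.0124). How reads in such overlaps were assigned is not stated in the sources used here, so the size of the MXD3 change is uncertain to that extent. Without selinexor replicate 1 the log2 fold change was -1.58.

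MNT, an antagonist present in most cells (chr17:2287354-2304413, minus strand), read 629, 552 and 575 with DMSO and 776, 520.0 and 591 with selinexor. The groups overlapped, replicate 1 was the highest, and MNT was not called (log2 fold change 0.09, adjusted p = 0.652; -0.08 without replicate 1). With the siRNA it went from 448, 404 and 461 to 536, 534 and 555. All knockdown libraries were higher (log2 fold change 0.31, adjusted p = 0.0016).

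MGA, the very large protein that brings MAX to PRC1.6 (chr15:41913422-42062142, plus strand), read 5649, 5632 and 5660 with DMSO and 4212, 4528 and 4635 with selinexor. All selinexor libraries were lower, a log2 fold change of -0.34 (adjusted p = 0.00588). With control siRNA MGA read 4374, 4639 and 4925, and with XPO1 siRNA 4992, 5078 and 5254. The knockdown libraries were just above the highest control, a log2 fold change of 0.14 (adjusted p = 0.0152). That call was lost without control siRNA replicate 1, without XPO1 siRNA replicate 3 and without the intensity trend in limma (highest adjusted p = 0.093).

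MLX, the hub of the branch that senses glucose (chr17:40719086-40725258, plus strand), read 2835, 3081 and 2949 with DMSO and 1733, 2451 and 2221 with selinexor. All selinexor libraries were lower, and replicate 1 was the lowest (log2 fold change -0.48, adjusted p = 0.0135). The value was -0.34 without selinexor replicate 1, and leaving out DMSO replicate 2 ended the call (adjusted p = 0.0604). With the siRNA MLX went from 3564, 3478 and 3431 to 3060, 2878 and 2735, with no overlap (log2 fold change -0.27, adjusted p = 0.000118). The opposite strand carries PSMC3IP, a recombination gene, which fell by 2.19 with selinexor and by 0.37 with the siRNA, and the same limit on overlapping reads holds for MLX.

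The tests of the difference between both effects were made in 1 fit of all 12 libraries. Selinexor raised MXD4 more than the siRNA did, by 0.75 on the log2 scale (adjusted p = 6.92e-05), and MXD1 by 0.42 (adjusted p = 0.0155). The effect on MXD3 was lower with selinexor by 0.71 (log2 difference -0.71, adjusted p = 0.00324). The effects on MAX (-0.32, adjusted p = 0.00699) and MGA (-0.48, adjusted p = 0.000853) were also lower with selinexor. These 5 of 10 members, 2 higher and 3 lower, stand against 30.9% of 17864 genes called (11.3% higher and 19.6% lower). The differences for MYCN (-0.21, 95% confidence interval -0.43 to 0.01, adjusted p = 0.138), MXI1 (0.30, adjusted p = 0.135) and MNT (-0.22, adjusted p = 0.345) were not called. Without selinexor replicate 1 each of these 3 passed, MYCN at -0.30 (adjusted p = 0.000379), MXI1 at 0.45 (adjusted p = 9.38e-05) and MNT at -0.38 (adjusted p = 0.00754). MLX (-0.21, adjusted p = 0.284) and MYC (0.54, adjusted p = 0.502) were not called. The treatments differ in agent, time and method of delivery, which cannot be told apart.

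A ratio within a library does not depend on the size factor. By median length, the transcripts of MXD1, MXD3, MXD4 and MXI1 summed to 3607 ± 30.6 per kb with DMSO and 7006 ± 172 with selinexor, and to 5040 ± 122 with control siRNA and 6441 ± 192 with XPO1 siRNA. MYCN stood at 3.91 ± 0.06 times this sum with DMSO and at 2.15 ± 0.26 times with selinexor, where replicate 1 was the highest at 2.45. By the longest transcript the fall was from 13.7 to 9.68, a smaller drop in proportion, also without overlap. In the knockdown the direction turned with the length used: the ratio went from 2.59 to 2.49 by median length and from 8.61 to 9.75 by the longest. MYCN over MAX was 8.09 ± 0.08 with DMSO and 8.80 ± 1.14 with selinexor, and 7.68 in both siRNA groups.

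Within the MXD sum, the share of MXD3 was lower and that of MXD4 higher in both comparisons and by both lengths. MXD3 made up 10.9% of it with DMSO and 1.99% with selinexor by median length, and 29.9% and 7.07% by the longest. In the knockdown its share went from 12.7% to 5.78% by median length and from 33.3% to 17.8% by the longest. MXD4 went from 52.0% to 67.0% with selinexor and from 48.4% to 56.3% with the siRNA by median length. By the longest it went from 32.6% to 54.0% and from 28.8% to 39.4%. The libraries of treated and control groups did not overlap for either share. The share of MXI1 turned with the length in the knockdown, from 33.6% to 30.8% by median length and from 34.5% to 37.2% by the longest. With selinexor it went from 30.3% to 22.8% by median length and from 32.8% to 31.6% by the longest.

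**Figure D4:**
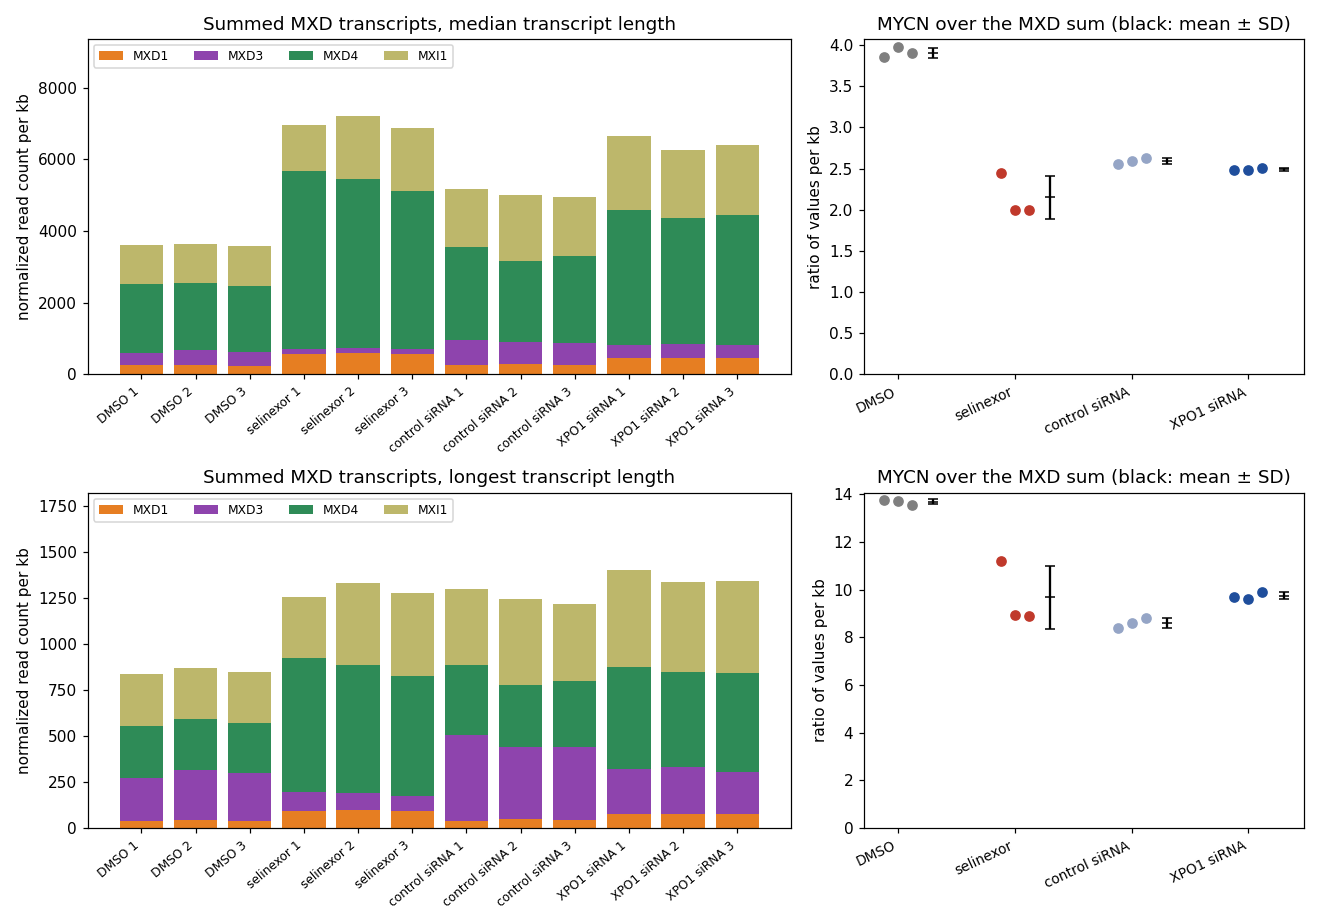
Left, normalized read count per kb of MXD1, MXD3, MXD4 and MXI1 stacked in each library; right, MYCN divided by that sum (points, libraries; black, mean ± SD), with the median (top) or longest (bottom) transcript length. The ratio was lower with selinexor than with DMSO by both lengths (3.91 to 2.15 and 13.7 to 9.68), while with XPO1 siRNA it went down by median length (2.59 to 2.49) and up by the longest (8.61 to 9.75).

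Of 5 genes beside MYCN on chromosome 2, 2 rose and 1 fell with selinexor, and 1 rose and 3 fell with the siRNA, MYCNOS included. Of all genes tested, 49.2% were called with selinexor and 54.5% with the siRNA. Without selinexor replicate 1, 2 rose and 2 fell with selinexor, and calls over all genes also rose, to 5048 higher and 6065 lower. DDX1, an RNA helicase gene often amplified together with MYCN, averaged 254640 ± 7579 with DMSO and 206000 ± 18744 with selinexor, with all libraries lower (log2 fold change -0.31, adjusted p = 0.0357). With the siRNA DDX1 was not called (log2 fold change -0.05, adjusted p = 0.294). NBAS, a gene of vesicle transport, was not called with selinexor (-0.10, adjusted p = 0.395) and fell with the siRNA (-0.29, adjusted p = 1.74e-05). FAM84A rose from 37429 ± 402 to 70962 ± 3364 with selinexor (log2 fold change 0.92) and from 58334 ± 2307 to 74190 ± 1701 with the siRNA (0.35, adjusted p = 4.11e-06). FAM49A was low, at 100.2 ± 2.90 with DMSO and 251 ± 40.5 with selinexor, and fell with the siRNA (log2 fold change -0.20, adjusted p = 0.0468). Whether any of these genes is amplified in IMR5 was not measured here.

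The corepressors through which the antagonists act moved both ways. Of 13 genes of the SIN3 complex, 2 rose and 6 fell with selinexor (median -0.27), and 4 rose and 4 fell with the siRNA (median -0.0019). Without selinexor replicate 1 the selinexor counts were 4 and 7, and calls over all genes also rose, from 4146 higher and 4774 lower to 5048 and 6065. The 8 genes called in each comparison are a share near the 49.2% and 54.5% of all genes called. By direction, 22.9% of all genes rose and 26.3% fell with selinexor, and 25.9% rose and 28.6% fell with the siRNA. RBBP7, a histone-binding subunit, fell by 1.17 with selinexor and by 0.45 with the siRNA. RBBP4, its close relative, fell by 0.70 with selinexor and by 0.27 with the siRNA. SAP30 fell by 0.53 with selinexor and was not called with the siRNA. ARID4A and ARID4B, large subunits that bind the retinoblastoma protein, rose by 0.59 and 0.47 with the siRNA. With selinexor ARID4A rose by 0.63 and ARID4B was not called (log2 fold change 0.14). Of 10 partners of MGA in PRC1.6, 8 fell and 1 rose with selinexor (median -0.76), where 26.3% of all genes fell, and 5 fell and 1 rose with the siRNA (median -0.20), where 28.6% fell. PCGF6, the subunit that sets this complex apart from other Polycomb complexes, fell from 980.0 ± 34.6 to 484 ± 42.7 with selinexor and from 980 ± 23.1 to 669 ± 18.9 with the siRNA. The E2F partner TFDP1 fell by 0.80 with selinexor and by 0.32 with the siRNA. The ubiquitin ligase RNF2 fell by 0.79 with selinexor and by 0.37 with the siRNA, while RYBP rose by 0.40 and 0.36.

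Coactivators of MYC proteins also moved both ways. Of 17, 2 rose and 5 fell with selinexor (median -0.14; 8 fell without selinexor replicate 1, median -0.02), and 6 rose and 4 fell with the siRNA (median 0.05). With all replicates, these counts too are near the 49.2% and 54.5% of all genes called. Without selinexor replicate 1, calls over all genes also rose, from 4146 higher and 4774 lower to 5048 and 6065. The ATPase gene RUVBL1 fell by 0.68 and 0.44, and the chromatin remodelling subunit ACTL6A by 0.88 and 0.34. WDR5, which belongs to this list and to that of PRC1.6 and helps MYC onto chromatin, fell by 0.96 with selinexor and by 0.31 with the siRNA. RUVBL2 fell by 0.30 with the siRNA and was not called with selinexor (log2 fold change -0.22).

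Among 20 regulators of MYC and MYCN protein stability, 3 rose and 8 fell with selinexor (median -0.23), and 6 rose and 10 fell with the siRNA (median -0.14). The 11 called with selinexor are a share near the 49.2% of all genes called, and the 16 called with the siRNA stand beside 54.5%. By direction, 22.9% of all genes rose and 26.3% fell with selinexor, and 25.9% rose and 28.6% fell with the siRNA. Without selinexor replicate 1, 4 regulators rose and 11 fell with selinexor, and calls over all genes also rose, to 5048 higher and 6065 lower. AURKA, the mitotic kinase that shields MYCN protein from degradation, read 3305, 3387 and 3361 with DMSO and 824, 1068 and 960.0 with selinexor. All selinexor libraries were lower, a 3.54-fold fall (log2 fold change -1.82, adjusted p = 5.37e-06), and with the siRNA 1.44-fold (adjusted p = 2.99e-08). FBXW7, the ubiquitin ligase subunit that marks MYCN protein for degradation, rose 2.42-fold with selinexor, from 1445 ± 28.6 to 3509 ± 409. With the siRNA FBXW7 rose 1.65-fold, from 1404 ± 80.9 to 2317 ± 29.8. FBXO32, another ligase subunit, rose from 49.3 ± 8.94 to 278 ± 4.86 with selinexor and from 37.1 ± 4.18 to 160 ± 4.59 with the siRNA. KIAA1524, which encodes CIP2A, an inhibitor of the phosphatase that destabilises MYC, fell 4.42-fold with selinexor and 1.42-fold with the siRNA. Protein was not measured here.

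Textbook targets that MYC or MYCN induce were lower in most cases. Of 30, 26 fell and 2 rose with selinexor (median -0.72, against -0.01 over all genes), and 21 fell and 2 rose with the siRNA (median -0.30, against 0.00). Of all genes 26.3% fell with selinexor and 28.6% with the siRNA. The replication helicase gene MCM7 fell 3.04-fold with selinexor and 1.48-fold with the siRNA. RCC1, the exchange factor of the transport GTPase Ran, fell 3.00-fold with selinexor and 1.40-fold with the siRNA. The mitochondrial serine enzyme gene SHMT2 fell 2.65-fold with selinexor and 1.42-fold with the siRNA. LDHA, lactate dehydrogenase, fell 2.60-fold with selinexor and 1.92-fold with the siRNA. ODC1, the first enzyme of polyamine synthesis, rose 1.80-fold with selinexor and 2.01-fold with the siRNA. Of 8 tested targets that MYC or MYCN repress, 6 rose and 2 fell with selinexor (median 1.59). Of 9 with the siRNA, 5 rose and 3 fell (median 0.34). Of all genes 22.9% and 25.9% rose. CDKN1A, the cell cycle inhibitor p21, rose 43.1-fold with selinexor and 22.6-fold with the siRNA, and GADD45A, a stress gene, 4.56-fold and 1.74-fold. NDRG1, a differentiation gene, rose 3.32-fold with selinexor and 1.63-fold with the siRNA. These genes also answer to other factors, and the part of MYCN in their change was not tested.

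**Figure D5:**
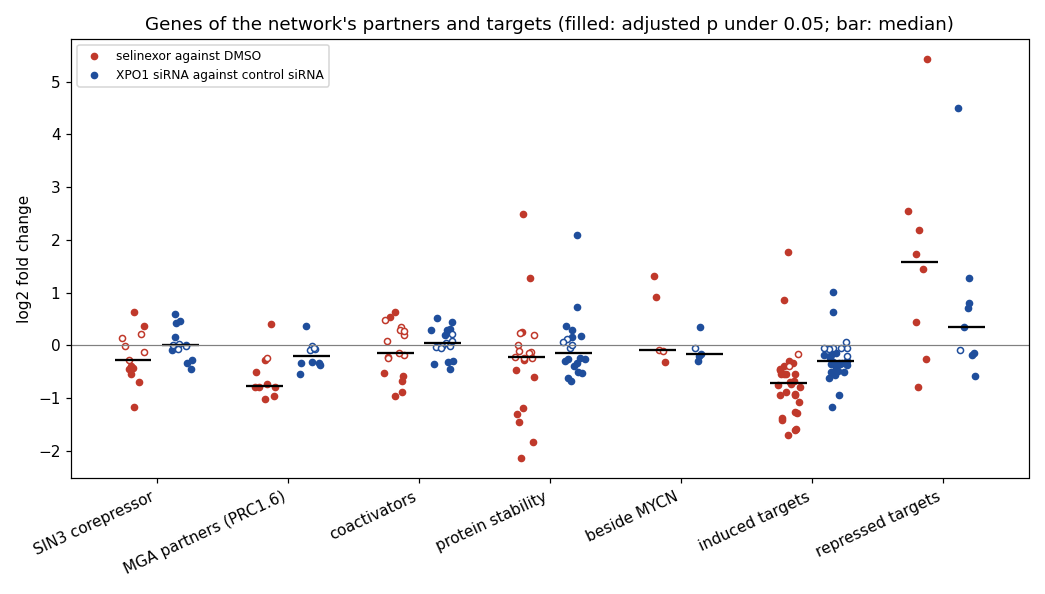
Log2 fold change of each listed gene with selinexor (red) and XPO1 siRNA (blue); filled points have an adjusted p under 0.05 and the black bars are medians. The induced targets have medians of -0.72 and -0.30 and the repressed targets 1.59 and 0.34, while the medians of the coactivators, -0.14 and 0.05, stand close to 0.

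The genes whose pattern was most like that of MYCN over the 12 libraries, each library set against the control mean of its table, were KDM2A (Pearson r = 0.986), DPYSL4 (0.973) and ANGPTL2 (0.969) among 12363 genes. Like MYCN, KDM2A, which encodes a histone demethylase, was high in selinexor replicate 1 (3143, against 2619 and 2606 in the other replicates) and rose with the siRNA, from 2156 ± 54.2 to 2681 ± 36.8. Among the 8 other members compared, MNT (0.853) and MAX (0.781) were nearest to MYCN, and MLX (-0.56) and MXD3 (-0.35) were farthest. MYC, with a mean under 100, was not compared. These values describe 12 libraries, of which those of a table share their normalization.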

How the data were processed

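Strand-specific total RNA libraries of IMR5 cells were made per the labels' protocols. The submitters' processing notes name build hg19 and the tools STAR 2.7.3a, Partek and DESeq2, and no source used here gives the annotation or the counting options. Both deposited tables (20029 genes for selinexor, 19610 for the knockdown) hold a signal: counts per gene that the authors scaled by 1 size factor per library, each table apart. The latter holds 3 further per-sample columns, not used here, and 25 symbols stored as dates, restored from coordinates. Depth was estimated from the steps of low values; between 61.8% and 66.7% of values were whole within 0.02, so no count model was fitted.

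On log2(value + 1), limma 3.58.1 (R 4.3.3, eBayes with an intensity trend, two-sided) tested each gene whose mean over a table reached 10; p-values were adjusted by Benjamini-Hochberg and called under 0.05. Only the group entered the model, and the difference of effects used 4 group means over 12 libraries. The step was tested on simulated data. Transcript lengths came from GENCODE 29 by symbol, and promoters from RefSeq. Python 3.11.15 with numpy 2.4.6, pandas 2.3.3 and matplotlib 3.10.9 made the tables and figures.

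The members and lists were chosen with earlier results of these data known. Named were the 10 members, XPO1, every gene of the list beside MYCN, up to 3 called genes of each other list per comparison with the smallest p (up to 2 where none was called), genes overlapping a member, and the 3 genes most like MYCN with a mean of 100 or more in both tables. Alternatives were a replicate block, each replicate left out, no trend, other pseudocounts (0.5 and 5), other filters (none, or a mean of 50), other scalings (equal totals, or a 30% trimmed mean) and the longest transcript.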

Additional observations from a re-analysis of the deposited data

Results flagged for a closer look

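For 5 members the effect of selinexor differed from that of the XPO1 siRNA by a test of the difference itself (limma, adjusted p under 0.05), given as selinexor effect minus siRNA effect on the log2 scale. MXD4 stood at 0.75 and MXD1 at 0.42, both rising with either treatment and more with selinexor. MXD3 stood at -0.71, falling more with selinexor. MAX stood at -0.32, since it rose with the siRNA and was not called with selinexor. MGA stood at -0.48, being lower with selinexor and higher with the siRNA, and its call with the siRNA was lost under 3 alternatives.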

How the results depend on the processing

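With the longest transcript in place of the median, levels per kb with DMSO were 11640 for MYCN, 4.71 for MYC, 402 for MAX, 40.4 for MXD1, 255 for MXD3, 277 for MXD4, 279 for MXI1, 117 for MNT, 391 for MGA and 1143 for MLX. On the log2 scale, the change of MYCN over the MXD sum with selinexor moved from -0.86 to -0.50, and with the siRNA it turned from -0.06 to 0.18; this alternative was added after the data were seen. No called log2 fold change of a member or of XPO1 reversed under any alternative run. The calls of MLX with selinexor and MGA with the siRNA were lost as given above, and the differences of MYCN, MXI1 and MNT passed without selinexor replicate 1. The other 484 values of members and XPO1 kept their side of the threshold. Leaving out 1 replicate gave 3 to 5 members lower in the difference of effects, 5 without selinexor replicate 1. Libraries rescaled to equal totals made 52.7% of selinexor calls higher in place of 46.5% and 62.4% of siRNA calls in place of 47.5%, with median shifts over all genes of 0.07 and 0.09, and left the members' counts at 3 and 3, and 7 and 2. Deviations of same-numbered replicates correlated at -0.10 to 0.12, and those of different-numbered replicates at -0.09 to 0.09. These values cannot tell whether same-numbered samples were handled together. With replicate number as a block, 3991 genes were higher and 4680 lower with selinexor, 4439 and 4882 with the siRNA, and the members' counts did not change. Depth limits MYC (7 to 25 reads per library), and the unstated counting of overlaps limits MXD3, MLX, MAX, MXD1 and MYCN.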

Other observations

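Some genes of the wider network were called in opposite directions in the comparisons. MYCL, the remaining MYC family gene, read 239, 266 and 261 with DMSO and 439, 457.5 and 429 with selinexor. All selinexor libraries were higher (log2 fold change 0.79, limma adjusted p = 0.000324). With control siRNA MYCL read 545, 505 and 528, and with XPO1 siRNA 395, 317 and 312, all lower (log2 fold change -0.63, adjusted p = 4.1e-05). The difference of both effects was 1.42 (adjusted p = 6.58e-06).

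Among the repressed targets, NGFR and DKK3 also moved in opposite directions, and DKK3 was singled out after its values were seen. NGFR, the low-affinity neurotrophin receptor, rose from 97.6 ± 11.8 to 574 ± 59.7 with selinexor and went from 1097 ± 24.1 to 996 ± 9.13 with the siRNA, a difference of effects of 2.68 (adjusted p = 4.45e-08). DKK3, a secreted protein gene, went from 446 ± 9.75 to 612 ± 34.9 and from 1181 ± 23.4 to 1037 ± 61.9 (difference 0.64, adjusted p = 0.000304). Control levels of MYCL, NGFR and DKK3 differed between the tables, which were normalized separately. For MYCL they averaged 255 with DMSO and 526 with control siRNA.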
